A study of Mus musculus with 21 samples.

Results

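The genes described here are 42 cell cycle and proliferation genes, measured by RNA-seq in Nes low mesenchymal cells of mouse bone marrow. They were chosen by name, and their rows were found through the Ensembl identifiers of the deposited table, which holds 26852 genes. All 42 were present. Of these, 35 had a mean over all libraries of at least 3.32 on the log2 scale, which corresponds to 10 normalized counts, and were tested. The 7 below this level were *Ccne1*, *E2f1*, *Cdc6*, *Cdc45*, *Cdk1*, *Plk1* and *Aurka*. For the description the members were placed in 9 roles. The 3 roles of G1 and S phase hold 17 members (13 tested), and the 6 roles of mitosis hold 25 members (22 tested).

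In the dividing cell, D-type and E-type cyclins act in G1 and free the E2F factors, which switch on genes for replication, while the MCM helicase is loaded on origins and opens the DNA in S phase. Cyclins A and B then drive the cell through G2 and mitosis, where kinases, centromere proteins and motors build the spindle and the anaphase-promoting complex (APC/C) marks its substrates for destruction. Most mesenchymal stromal cells of the adult marrow divide rarely, whereas many blood cell precursors in the same marrow divide often.

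The hosts were NSG mice, whose lack of lymphocytes lets human cells grow, with green fluorescent protein driven by Nestin regulatory sequence, and were used without conditioning. Mice of the leukemic groups received human acute myeloid leukemia (AML) cells of the line HL60 or ML1 at an age of 8 to 12 weeks, and ctrl mice were not engrafted. The injected lines secreted sLP-mCherry, a red protein that enters cells nearby, so that at the early, low engraftment stage Nes low cells could be sorted into marked cells (ch+) and unmarked cells of the same marrow (ch-). Late cells came from mice at a late stage of engraftment, and their labels name no mark. Each of 7 groups held 3 libraries, namely ctrl and, for each of the 2 lines, early ch-, early ch+ and late. A legend of the paper gives 5 ctrl samples for this experiment, and the 3 ctrl libraries are those analysed here. Human and mouse blood cells were depleted with magnetic beads, and the sorting stain covered human and mouse CD45, Ter119 and CD31. The Nestin reporter defines the Nes low gate, so the cells are a sorted mixture and not a single cell type, and the host lacks an adaptive immune system. By the paper's methods mice were killed at 13 to 20 weeks of age. The age for each group, the days after transplantation and the mouse behind each library are not given in the sources used here.

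For the 3 ML1 late libraries, a treatment label describes mice without engraftment, while the title and the time point label place them in the late stage. They were kept as late. Pooled calls of late cells that were lost without them are named as such, and without them the late value against ctrl is that of HL60 alone.

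The values are the authors' regularized values and were read as log2. The paper's methods name log10 instead, a scale on which the highest value, 22.44, would exceed any possible count. They do not give back read numbers, so the depth behind each value is unknown, and regularization shrinks differences between weakly expressed genes' values. The linear values of a library summed to between 11862642 and 14229380 in ctrl and to between 7264989 and 9022185 in late. Genes with a Benjamini-Hochberg adjusted p under 0.1 in limma, two-sided and over the 12976 genes tested, are called higher or lower. A log2 fold change is the difference of group means, with HL60 and ML1 given equal weight where both enter.

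The sorted identity was checked first. *Nes*, which encodes Nestin, averaged 7.39 ± 0.24 (log2, SD, n = 3) in ctrl and 7.30 ± 0.52 (n = 6) in late, with 7.32 ± 0.24 (n = 6) for ch- and 7.30 ± 0.38 (n = 6) for ch+, and was not called in any of these comparisons. *Cxcl12*, the most abundant marker on a list of 10 mesenchymal stromal cell genes, ranged from 14.89 to 15.57 in ctrl and from 15.95 to 16.44 in late. Other cell types were also present in the values. *Ptprc*, which encodes CD45, was 2.49 to 2.61 in ctrl and 2.36 to 2.54 in late, but 2.67 to 5.92 in ch- and 3.81 to 5.58 in ch+. Red cell markers (9 of 10 tested) summed to 8.42 to 9.47 (log2) in ctrl and 6.67 to 7.11 in late, but to 12.32 to 13.33 in ch- and 12.10 to 13.66 in ch+. Their most abundant gene, *Hbb-bs*, a beta-globin, ranged from 7.15 to 7.90 in ctrl and from 4.44 to 4.87 in late, but from 11.17 to 12.08 in ch- and from 10.90 to 12.47 in ch+. Myeloid markers (12 of 12 tested) summed to 8.20 to 9.37 in ctrl and 7.14 to 8.20 in late, but to 10.76 to 11.79 in ch- and 10.36 to 11.64 in ch+, with *Lyz2*, the lysozyme of macrophages and granulocytes, the most abundant.

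Chondrocyte, osteoblast and smooth muscle markers summed to lower levels in late and in ch+ than in ctrl. Chondrocyte markers (12 of 13 tested, most abundant *Col2a1*) summed to 16.47 to 17.44 in ctrl, 13.74 to 14.34 in HL60 late and 11.78 to 12.38 in ML1 late, with 15.66 to 16.69 for ch- and 14.14 to 15.36 for ch+. Osteoblast markers (10 of 10 tested, most abundant *Col1a1*) summed to 20.26 to 20.70 in ctrl, 18.62 to 19.00 in HL60 late and 16.32 to 17.02 in ML1 late, with 19.98 to 20.47 for ch- and 19.84 to 20.07 for ch+. Megakaryocyte markers (2 of 5 tested, most abundant *Ppbp*), smooth muscle markers (6 of 6, *Rgs5*) and endothelial markers (5 of 7, *Cdh5*) summed to 4.69 to 5.59, 13.92 to 14.87 and 7.79 to 8.24 in ctrl and to 4.66 to 5.04, 13.01 to 13.40 and 7.29 to 8.18 in late, with smooth muscle markers at 13.45 to 14.32 for ch- and 12.48 to 12.94 for ch+. Endothelial markers summed to 8.55 to 8.63 in HL60 ch+ and 7.40 to 8.07 in HL60 ch-. With ML1 they summed to 7.72 to 8.19 in ch+ and 8.02 to 8.52 in ch-. The part of these other cells in the following results was not tested.

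In late Nes low cells the 22 tested mitotic members all had negative log2 fold changes against ctrl, and 5 of them were called. Members of G1 and S phase had values of both signs. *Ccna2*, *Top2a*, *Ube2c*, *Mki67* and *Nusap1* fell, and *Tyms* and *Mcm4* rose. That is 7 of 35 tested members, or 20.0%, beside 22.8% of all genes tested, so the number of calls was near the background. With the compared groups fitted alone 12 members were called, or 34.3%, beside 26.4% of all genes. In that fit 2 members were higher (5.71%, where 12.9% of all genes were) and 10 lower (28.6%, where 13.5% were). In the fit of all groups 5 members were lower (14.3%, where 12.0% of all genes were), which was near the background. The other 2 were higher (5.71%, where 10.7% of all genes were). The difference between these shares and those of all genes was not tested. The median log2 fold change of the 35 was −0.48, with 27 negative, against 0.02 for all genes, of which 48.3% were negative. Among the 22 mitotic members all were negative, with a median of −0.62, and among the 13 members of G1 and S phase 5 were negative, with a median of 0.06. Without the ML1 late libraries 4 members were called, *Ccna2*, *Top2a* and *Mki67* lower and *Tyms* higher, or 11.4% beside 12.7% of all genes, 20 of the 22 mitotic members were negative and their median was −0.46. In these bulk samples, fewer dividing cells and less RNA of a gene per cell cannot be told apart.

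The direction depended in part on how libraries were scaled. A library total is a sum of linear values, in which the most abundant genes weigh most. Which genes set the difference in totals was not tested. When each was rescaled to the mean library total, the median log2 fold change of all genes in late against ctrl moved from 0.02 to 0.71. The split of members called then turned from 2 higher and 5 lower to 9 higher (25.7%) and 3 lower (8.57%), where 61.5% of all genes were higher and 4.24% lower. The difference between these shares was not tested. Of the 22 mitotic members 10 remained negative, 1 was called higher and 3 lower (*Ccna2*, *Top2a* and *Ube2c*), and 8 of the 13 members of G1 and S phase were called higher. Rescaling adds the same amount to every gene of a comparison, so positions relative to the median of all genes, −0.64 for the mitotic members and 0.04 for those of G1 and S phase, cannot change with it. Quantile normalization gave 2 higher and 7 lower, where 11.1% of all genes were higher and 11.1% lower.

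Late cells were also compared directly with early cells. Against ch+, of the 35 members 14 were lower in late and none was higher, where 11.6% of all genes were lower, 9.51% higher and 21.1% called in either direction. They were *Mki67*, *Ccna2*, *Top2a*, *Ube2c*, *Nusap1*, *Tpx2*, *Rrm2*, *Kif11*, *Birc5*, *Kif23*, *Cenpa*, *Cenpf*, *Ccnd2* and *Smc2*, so that 12 were mitotic. The median was −0.63 over the 35 members (0.02 over all genes), −0.83 over the 22 mitotic members, of which 21 were negative, and −0.14 over the 13 others. The count fell to 9 without ML1 late replicate 582 and to 7 without all ML1 late libraries, all lower, where 5.07% of all genes were higher and 6.63% lower. After rescaling to the library totals, which moved the median of all genes to 0.63, 8 members were higher and 5 lower (*Mki67*, *Ccna2*, *Top2a*, *Ube2c* and *Nusap1*), where 66.6% of all genes were higher and 4.71% lower, and 16 of the 22 mitotic members remained negative. Against early ch- cells, 10 members were lower in late and none higher, where 13.1% of all genes were lower and 23.8% were called. The 10 were *Ccna2*, *Mki67*, *Top2a*, *Nusap1*, *Ube2c*, *Cenpf*, *Birc5*, *Kif11*, *Cdca8* and *Mcm2*. Rescaling turned this split to 13 higher and 4 lower, with a median of all genes of 0.77, where 75.5% of all genes were higher and 3.77% lower. Leaving out the ML1 late libraries left 5 lower, where 5.89% of all genes were higher and 7.38% lower. In both of these comparisons with early cells, 9 of 9 red cell markers and 11 of 12 myeloid markers were lower in late, with medians of −4.41 and −3.09 against ch+, and their part in the members' lower values was not tested. Against ctrl, 4 of 9 red cell markers and 3 of 12 myeloid markers were lower in late, with medians of −0.62 and −0.16.

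Few members changed at the early stage. In ch+ cells against ctrl, *Mki67* alone was higher (1 of 35, or 2.86%, where 4.45% of all genes were higher, 3.74% lower and 8.18% called), and in ch- cells *Tyms* alone (1 of 35, where 1.58% were higher, 1.14% lower and 2.72% called). The first share was below the background and the second close to it. The medians of the members were 0.23 and 0.08, against 0.01 for all genes in both comparisons. Between ch+ and ch- cells, *Ccnd2* alone was higher in ch+ (1 of 35, where 4.10% of all genes were higher, 3.62% lower and 7.72% called). At an unadjusted p under 0.05 the early comparisons with ctrl gave 4 members for ch+ and 3 for ch-, beside 18.0% and 12.9% of all genes. The comparisons of late, ch+ and ch- cells with ctrl share the same 3 ctrl libraries. Without the filter on low values, calls were lost for *Mcm4* and *Nusap1* in late against ctrl, for *Birc5*, *Cenpa*, *Cenpf*, *Kif23* and *Tpx2* against ch+, for *Birc5* and *Cdca8* against ch-, for *Cdca8* and *Cenpf* in ML1 late against ctrl and for *Kif23* and *Top2a* in HL60 late against ch+, beside those of *Mki67* and *Top2a* given with these genes.

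**Figure D1:**
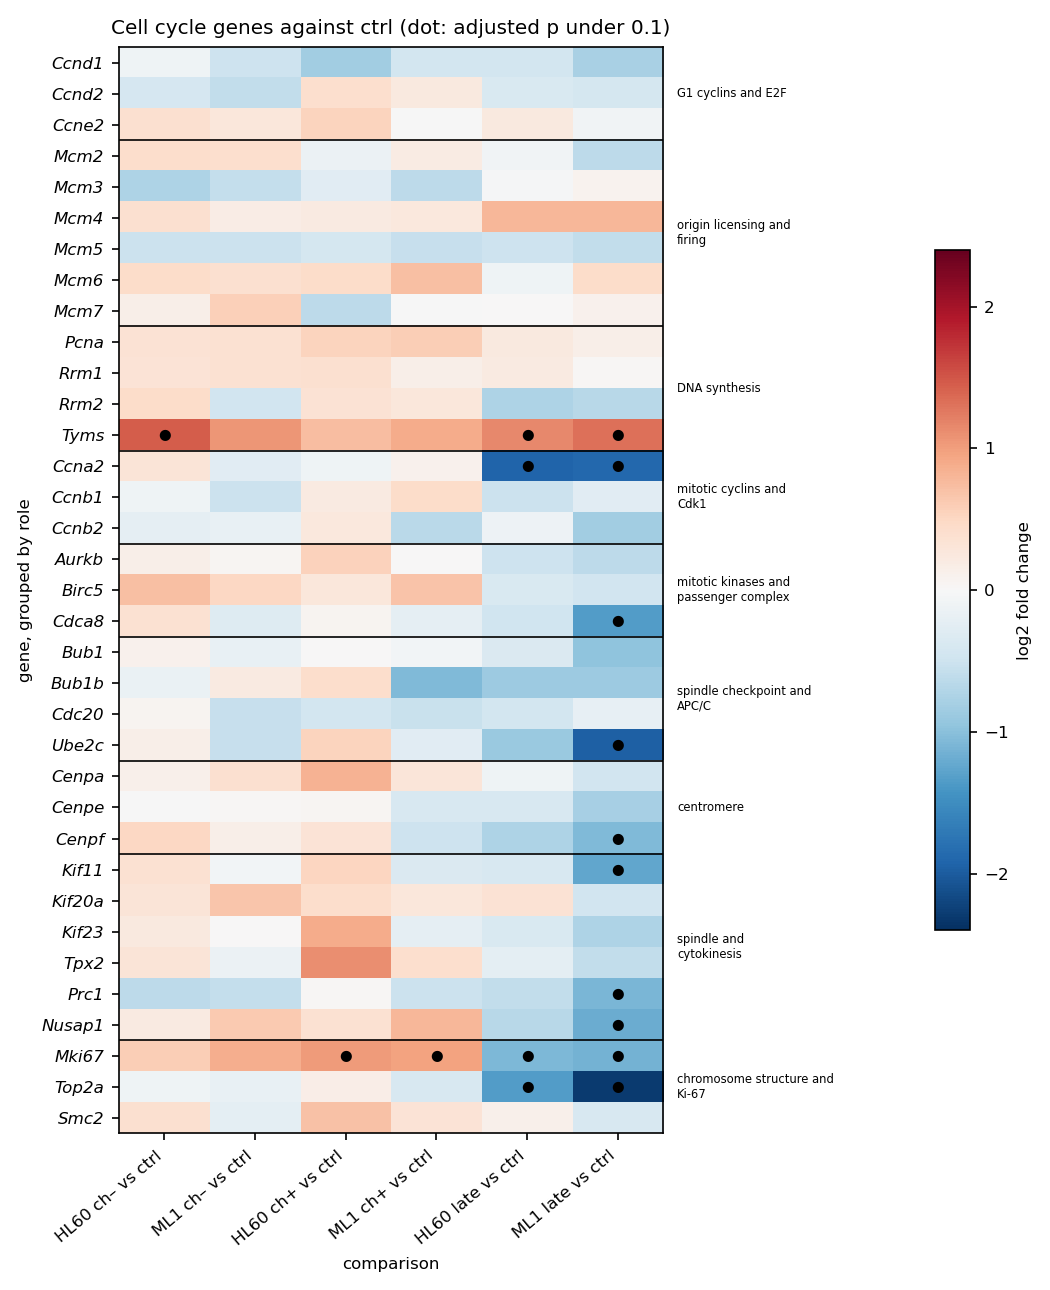
Log2 fold changes against ctrl of the 35 tested cell cycle genes (lines, grouped by role) in 6 comparisons (columns), with color from blue (lower) to red (higher) and a dot where the adjusted p was under 0.1. The mitotic roles are mostly blue in both late columns. In HL60 late 3 of the 35 genes were lower (8.57%, near the 7.24% of all genes), and in ML1 late 9 (25.7%, beside 12.1% of all genes). Rescaling to the library totals turns 12 of the 22 mitotic genes positive in late cells of both lines together.

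Cyclin D2 was the member of the G1 group that changed. *Ccnd2* (ENSMUSG00000000184, chr6:127125162-127152193, GRCm38 as for all positions given here), whose product pairs with Cdk4 and Cdk6 to start the cycle, had log2 values of 10.11, 10.40 and 10.29 in HL60 ch+ libraries and 10.06, 9.95 and 10.26 in ML1 ch+. In ch- libraries the values were 9.20, 9.67 and 9.48 with HL60 and 9.46, 9.20 and 9.14 with ML1. Every ch+ library was therefore above every ch- library, which held for 1.68% of all genes in this direction. Late libraries had 9.28, 9.28 and 9.93 with HL60 and 9.59, 9.35 and 9.38 with ML1, and ctrl had 10.12, 9.94 and 9.52. The ctrl values lay between these and overlapped each of them, whereas every late library was below every ch+ library, as for 5.14% of all genes. In ch+ against ch- cells *Ccnd2* rose by 0.82 (standard error 0.13, adjusted p = 8.39e-05, limma), and by 0.82 with HL60 (adjusted p = 0.0108) and 0.83 with ML1 (adjusted p = 0.00951) alone, limma. These calls held without any single library. In late against ch+ it fell by 0.71 (adjusted p = 0.000190, limma), a difference that was −0.09 after rescaling and not called, with HL60 at −0.30 and ML1 turned to 0.11, and that was −0.68 and called without the ML1 late libraries. Between ch+ and ch- cells the chondrocyte markers also differed, with 12 of 12 lower in ch+ and a median of −3.14, as did 6 of 6 smooth muscle markers with a median of −1.97 and 4 of 10 osteoblast markers with a median of −0.31, while red cell and myeloid markers had no gene called by limma (0 of 9 and 0 of 12, with none at an unadjusted p under 0.05).

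The other G1 members were not called in any comparison. *Ccnd1*, another D-type cyclin gene, had a log2 fold change of −0.61 in late, −0.63 in ch+ and −0.30 in ch- against ctrl. *Ccne2*, an E-type cyclin that works with Cdk2 at the start of S phase, had 0.08, 0.27 and 0.32. The other E-type cyclin gene, *Ccne1*, and *E2f1*, an activating E2F factor, were too low to test. Means of *Ccne1* by group and line ran from 1.78 in ML1 late to 2.48 in HL60 ch+, and those of *E2f1* from 2.61 in ML1 late to 3.98 in HL60 ch+.

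The MCM genes, which encode the helicase that is loaded on origins and unwinds DNA, did not move together. *Mcm4* (ENSMUSG00000022673, chr16:15623897-15637400), a subunit of that helicase, had log2 values of 7.31, 6.20 and 6.57 in ctrl, 7.55, 7.40 and 7.51 in HL60 late and 7.51, 7.51 and 7.44 in ML1 late. In ch- libraries the values were 7.03, 7.02 and 7.16 with HL60 and 6.38, 7.38 and 6.85 with ML1. In ch+ libraries they were 6.36, 6.68 and 7.69 with HL60 and 7.38, 6.33 and 7.12 with ML1. Late libraries lay within a narrow band above every ctrl library, with ctrl replicate 373 just under it, and above every ch- library, while ch+ libraries ranged on both sides. Late was fully above ctrl for 9.15% of all genes and fully above ch- for 4.34%. *Mcm4* rose by 0.79 in late against ctrl (standard error 0.30, adjusted p = 0.0695, limma). The call was lost without ctrl replicate 374 (0.55), ctrl replicate 375 (0.73), ML1 late replicate 581 (0.79) or 582 (0.79), or HL60 late replicate 397 (0.78) or 399 (0.79), and without all ML1 late libraries, where the value was 0.80 (adjusted p = 0.221, limma).

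The other 5 MCM members had values of both signs in late against ctrl, from −0.54 for *Mcm5* and −0.36 for *Mcm2* to 0.03 for *Mcm3*, 0.06 for *Mcm7* and 0.17 for *Mcm6*. *Mcm2* fell by 0.78 in late against ch- cells (standard error 0.31, adjusted p = 0.0785, limma). That call was lost without HL60 ch- replicate 528 (−0.77) or 529 (−0.72), ML1 ch- replicate 544 (−0.60), HL60 late replicate 398 (−0.56) or 399 (−0.79), or ML1 late replicate 582 (−0.60) or 583 (−0.82), and without all ML1 late libraries (−0.51) and after rescaling (−0.01). In ch+ and ch- cells against ctrl, no MCM member was called by limma, and their values ran from −0.66 (*Mcm3* in ch-) to 0.58 (*Mcm6* in ch+). *Cdc6*, which loads the helicase, and *Cdc45*, which is part of its active form, were too low to test, with means by group and line of 2.34 to 3.85 and 2.80 to 3.54.

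Thymidylate synthase had higher values in every leukemic group than in ctrl. *Tyms* (ENSMUSG00000025747, chr5:30058202-30073617), whose product makes the thymidylate used for DNA, had 4.94, 4.58 and 4.95 in ctrl, the lowest values of the 21 libraries. It had 5.89, 6.43 and 6.50 in HL60 ch-, 5.26, 6.47 and 5.91 in ML1 ch-, 5.26, 5.63 and 5.80 in HL60 ch+ and 5.63, 5.75 and 5.77 in ML1 ch+. Late values were 5.85, 6.08 and 5.99 with HL60 and 6.22, 6.42 and 5.78 with ML1. Every leukemic library was above all 3 ctrl libraries, a separation that 9.15% of all genes showed in late, 4.16% in ch+ and 3.27% in ch-, each against ctrl and in this direction. *Tyms* rose by 1.23 in late (adjusted p = 0.00519, limma, standard error 0.32) and by 1.25 in ch- (adjusted p = 0.0325, limma, standard error 0.32). For ch+ its value was 0.81 and the test was not passed (adjusted p = 0.148, limma). The late call held without any single library and without the ML1 late libraries (1.15), but the call in ch- was lost without ctrl replicate 374 (1.13) and when the compared groups were fitted alone (adjusted p = 0.161, limma). In that last fit 1 member other than *Tyms* was called higher in ch-. By line, the late values were 1.15 for HL60 (adjusted p = 0.0392, limma) and 1.32 for ML1 (adjusted p = 0.00985, limma). The HL60 late call was lost without ctrl replicate 374 (1.03) or HL60 late replicate 398 (1.09) or 399 (1.14). The HL60 ch- value of 1.45 (adjusted p = 0.0435, limma) lost its call without ctrl replicate 374 (1.32) or HL60 ch- replicate 528 (1.37) or 529 (1.33) and with the compared groups alone (adjusted p = 0.228, limma).

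Of the other genes of DNA synthesis, *Rrm2*, the regulated small subunit of ribonucleotide reductase, fell by 1.02 in late against ch+ cells (standard error 0.32, adjusted p = 0.0222, limma). Its late libraries ran from 4.07 to 5.40, all below the ch+ range of 5.41 to 6.66, while ctrl had 5.35 to 5.88 and overlapped late by a narrow margin. Late was fully below ch+ for 5.14% of all genes. The call held without any single library and without the ML1 late libraries (−1.05), and after rescaling the value was −0.41 and not called. *Rrm1*, the large subunit of the same enzyme, and *Pcna*, the sliding clamp of the DNA polymerases, were not called in any comparison. Their log2 fold changes in late against ctrl were 0.12 and 0.19. The mean of the 4 genes was 6.06 to 6.18 in ctrl libraries, 6.03 to 6.49 in late, 6.24 to 7.03 in ch+ and 6.24 to 6.92 in ch-, so that every early library was above every ctrl library while late overlapped ctrl.

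Cyclin A2 was lower in late cells of both lines than in any other group. *Ccna2* (ENSMUSG00000027715, chr3:36564865-36572150), the cyclin that partners Cdk2 in S phase and Cdk1 in G2, had 6.84, 5.63 and 6.48 in ctrl, 4.47, 3.79 and 4.92 in HL60 late and 4.36, 4.39 and 4.55 in ML1 late. For ch-, the libraries had 7.35, 5.64 and 6.92 with HL60 and 5.85, 5.89 and 6.37 with ML1. In ch+ libraries the values were 5.81, 6.63 and 6.23 with HL60 and 6.29, 6.73 and 6.22 with ML1. No late library reached the lowest library of any other group. Such a separation below was found for 9.93% of all genes against ctrl, 5.14% against ch+ and 5.56% against ch-. *Ccna2* fell by 1.90 against ctrl (standard error 0.37, adjusted p = 0.000304, limma), fell by 1.91 against ch+ (adjusted p = 1.74e-05, limma) and fell by 1.92 against ch- (adjusted p = 1.42e-05, limma). It fell by 1.92 in HL60 late and fell by 1.88 in ML1 late against ctrl (adjusted p = 0.00242 and 0.00163, limma), and the lines differed by −0.04 (adjusted p = 0.996, limma). The calls in these comparisons held without any single library, without the ML1 late libraries and after rescaling, where the value against ctrl was −1.21. In the early groups *Ccna2* stood at 0.00 in ch+ and 0.02 in ch- against ctrl.

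The B-type cyclin genes, whose products activate Cdk1 at the entry to mitosis, had smaller differences that passed no test. *Ccnb1* was −0.39 and *Ccnb2* −0.48 in late against ctrl, and −0.72 and −0.28 in late against ch+. Their libraries overlapped in all of these comparisons. *Cdk1*, the mitotic kinase itself, was too low to test, with means from 2.53 in ML1 ch- to 3.16 in HL60 ch+, 2.79 in ctrl, 2.82 in HL60 late and 2.67 in ML1 late.

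Genes of the chromosomal passenger complex, which steers chromosome attachment and cytokinesis, were lower in late than in early cells in part. *Birc5*, which encodes survivin, had log2 values of 3.18, 3.08 and 4.84 in ctrl, 2.93, 3.19 and 3.89 in HL60 late and 2.91, 3.79 and 3.05 in ML1 late. For ch+, the libraries had 3.87, 4.46 and 3.58 with HL60 and 3.14, 4.68 and 5.36 with ML1, and the ch- libraries 4.07, 4.14 and 5.08 and 3.56, 4.21 and 4.83. Late libraries of both lines were below those of HL60 ch-, and the late, ch+ and ch- libraries of both lines together overlapped. *Birc5* fell by 1.02 against ch- (adjusted p = 0.0464, limma) and fell by 0.89 against ch+ (adjusted p = 0.0991, limma), and it was −0.41 against ctrl. Against ch+, the call sat at the threshold and was lost when any of 11 libraries was left out, namely ML1 ch+ replicate 541 (−0.65), HL60 ch+ replicates 523 (−0.91) and 524 (−0.77), ML1 ch+ replicate 539 (−0.82), HL60 late replicates 397 (−0.79) and 398 (−0.85), ML1 late replicates 581 (−0.80) and 583 (−0.84), and HL60 ch- replicates 527 and 528 and ML1 ch- replicate 544 (−0.89 each), which enter only the shared spread. Against ch-, it was lost without HL60 ch- replicate 529 (−0.86), ML1 ch- replicate 546 (−0.87), HL60 late replicate 397 (−0.92) or ML1 late replicate 581 (−0.94), and both calls were lost without the ML1 late libraries (−0.98 against ch- and −0.84 against ch+) and after rescaling (−0.26 and −0.27).

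*Cdca8*, which encodes borealin of the same complex, fell by 1.34 in ML1 late against ctrl (standard error 0.50, adjusted p = 0.0660, limma). Its ML1 late libraries had 3.01, 3.07 and 3.07, below every ctrl library (4.08, 4.05 and 5.04), while HL60 late had 4.76, 3.07 and 3.91 and overlapped ctrl. The difference between the lines in late was 0.86 (adjusted p = 0.625, limma). The ML1 call was lost without ctrl replicate 375 (−1.02) or any 1 of ML1 late replicates 581 (−1.32), 582 (−1.35) and 583 (−1.35), and after rescaling (−0.53). In late against ch-, *Cdca8* fell by 0.94 (adjusted p = 0.0644, limma), a call lost without HL60 ch- replicates 527 (−0.84) or 528 (−0.91), ML1 ch- replicates 543 (−0.75) or 546 (−0.90), HL60 late replicates 398 (−0.73) or 399 (−0.94), or ML1 late replicates 581 (−0.93) or 583 (−0.95), without all ML1 late libraries (−0.51) and after rescaling (−0.17). *Aurkb*, the kinase of the complex, was −0.56 in late against ctrl and −0.83 against ch+, without a call. *Plk1* and *Aurka*, kinases that mature the spindle poles, were too low to test, with means by group and line of 2.82 to 3.35 and 2.78 to 3.68.

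*Ube2c* (ENSMUSG00000001403, chr2:164769898-164778822), the ubiquitin-conjugating enzyme of the APC/C, was the member of the checkpoint and APC/C group that changed. It had 5.85, 5.47 and 6.52 in ctrl, 5.40, 4.45 and 5.31 in HL60 late and 3.98, 3.55 and 4.44 in ML1 late. Values in ch- libraries were 5.90, 6.47 and 5.89 with HL60 and 5.01, 5.13 and 6.03 with ML1. Values in ch+ libraries were 6.60, 6.85 and 5.997 with HL60 and 5.93, 5.88 and 5.24 with ML1. All late libraries were below all ctrl libraries, as for 9.93% of all genes, HL60 late by little and ML1 late by more. HL60 late was below every HL60 early library but overlapped those of ML1. *Ube2c* fell by 1.42 in late against ctrl (standard error 0.36, adjusted p = 0.00476, limma). By line it fell by 1.96 in ML1 late (adjusted p = 0.000812, limma), and the value of −0.89 in HL60 late was not called (adjusted p = 0.205, limma). The direct test between the lines gave 1.06 (adjusted p = 0.248, limma) and was not passed. No single library decided the call against ctrl, but without the ML1 late libraries it was lost (−0.89). Against ch+ it fell by 1.56 (adjusted p = 0.000193, limma) and against ch- fell by 1.218 (adjusted p = 0.00283, limma). After rescaling, the values were −0.73 against ctrl, −0.94 against ch+ and −0.45 against ch-, the last without a call. Without the ML1 late libraries the call against ch+ held (−1.03), and that against ch- was lost as well (−0.69).

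*Bub1* and *Bub1b*, kinases of the spindle checkpoint, and *Cdc20*, the APC/C activator that the checkpoint holds back, were called in none of the comparisons. In late against ctrl they had −0.66, −0.87 and −0.33. Their libraries scattered widely, and in ctrl alone *Bub1b* ranged from 2.63 to 5.74.

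Among the centromere genes, *Cenpf*, which binds kinetochores and microtubules in G2 and mitosis, had log2 values of 6.44, 6.34 and 5.47 in ctrl, 5.44, 4.95 and 5.64 in HL60 late and 5.11, 5.35 and 4.64 in ML1 late. Unmarked cells (ch-) had 7.12, 6.47 and 6.16 with HL60 and 6.40, 6.21 and 6.06 with ML1. Marked cells (ch+) had 6.17, 6.71 and 6.35 with HL60 and 6.63, 5.59 and 4.54 with ML1. Every late library was below every ch- library, as for 5.56% of all genes, and late overlapped ctrl and ch+. *Cenpf* fell by 1.216 against ch- (standard error 0.31, adjusted p = 0.00399, limma), which held without any single library and without the ML1 late libraries (−1.06) and was −0.45 and not called after rescaling. It fell by 0.81 against ch+ (adjusted p = 0.0689, limma), a call lost without HL60 ch+ replicate 524 (−0.74), ML1 ch+ replicate 538 (−0.55), HL60 late replicate 398 (−0.71) or ML1 late replicate 581 (−0.83) or 583 (−0.71), without all ML1 late libraries (−0.66) and after rescaling (−0.20). *Cenpa*, the histone H3 variant that marks centromeres, fell by 0.84 against ch+ (standard error 0.32, adjusted p = 0.0709, limma) with overlapping libraries (3.44 to 4.49 in late and 3.76 to 5.59 in ch+). That call was lost when any 1 of 7 late or ch+ libraries was left out, with values from −0.67 (ML1 ch+ replicate 539) and −0.68 (HL60 ch+ replicate 524) through −0.74 (HL60 late replicate 399), −0.77 (ML1 late replicate 583), −0.80 (ML1 late replicate 582) and −0.82 (HL60 late replicate 398) to −0.84 (ML1 ch+ replicate 541). It was also lost without all ML1 late libraries (−0.66) and after rescaling (−0.22). *Cenpe*, a kinesin of the kinetochore, was −0.59 in late against ctrl and was called nowhere. In ML1 late against ctrl, *Cenpf* fell by 1.05 at an adjusted p of 0.0996 (limma), so close to the threshold that leaving out any of 16 libraries lost the call, with values of −0.85, −1.09 and −1.21 without ML1 late replicates 583, 581 and 582, −0.87 and −0.92 without ctrl replicates 373 and 374, and −1.05 without 11 libraries of the other groups. After rescaling it was −0.23, not called. HL60 late had −0.74 without a call, and the lines differed by 0.31 (adjusted p = 0.943, limma).

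The spindle and cytokinesis genes had negative values in late against ctrl and against both early groups, all 6 in each comparison. *Nusap1* (ENSMUSG00000027306, chr2:119618298-119651244), which bundles spindle microtubules near chromosomes, had 5.48, 4.58 and 5.04 in ctrl, 4.19, 4.17 and 4.75 in HL60 late and 3.65, 3.77 and 4.12 in ML1 late. Libraries of ch- cells gave 5.80, 4.76 and 5.17 with HL60 and 5.81, 5.80 and 5.37 with ML1. In ch+ libraries the values were 5.78, 5.42 and 5.01 with HL60 and 5.00, 6.63 and 5.88 with ML1. The 6 late libraries were below every early library, and 1 of them, HL60 late replicate 399, lay above the lowest ctrl library. Of all genes, 5.14% had every late library below every ch+ library, and 5.56% below every ch- library. *Nusap1* fell by 1.51 against ch+ (standard error 0.30, adjusted p = 0.000319, limma) and fell by 1.35 against ch- (adjusted p = 0.00114, limma), which held without any single library, without the ML1 late libraries and after rescaling. Against ctrl it fell by 0.92 (standard error 0.37, adjusted p = 0.0814, limma). That call was lost without ctrl replicate 373 (−0.70) or 375 (−0.92), HL60 late replicate 397 (−0.88) or 398 (−0.87), or ML1 late replicate 581 (−0.88) or 582 (−0.90), without all ML1 late libraries (−0.66) and after rescaling (−0.23).

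*Tpx2*, which activates Aurora A and nucleates spindle microtubules, fell by 1.16 in late against ch+ (standard error 0.39, adjusted p = 0.0361, limma). The motor genes *Kif11*, whose product pushes the spindle poles apart, and *Kif23*, whose product acts in the central spindle, had −0.89 (adjusted p = 0.0303, limma) and −0.88 (adjusted p = 0.0527, limma). The 3 genes overlapped between late (3.69 to 5.93, 3.69 to 5.49 and 2.73 to 3.93) and ch+ (5.07 to 7.08, 4.45 to 6.16 and 3.44 to 4.93). Single libraries decided these calls: *Tpx2* lost its call without ML1 late replicate 582 (−0.86) or ML1 ch+ replicate 538 (−0.97), *Kif11* without ML1 late replicate 582 (−0.76), and *Kif23* without ML1 late replicate 582 (−0.81), HL60 late replicate 397 (−0.75) or HL60 ch+ replicate 524 (−0.80). None of the 3 was called by limma after rescaling (−0.54, −0.28 and −0.26) or without the ML1 late libraries (−0.99, −0.46 and −0.69). Against ch-, *Kif11* fell by 0.96 (adjusted p = 0.0176, limma), which no single library decided, but the call was lost without all ML1 late libraries (−0.52) and after rescaling (−0.19). *Prc1*, which bundles the midzone, was −0.84 in late against ctrl (adjusted p = 0.102, limma), just short of a call, and *Kif20a*, a kinesin of the midzone, was −0.06.

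Ki-67 was the member with calls against ctrl in both directions. *Mki67* (ENSMUSG00000031004, chr7:135689784-135716361), the proliferation marker that coats mitotic chromosomes, had 9.01, 8.995 and 8.96 in ctrl. Among ch- libraries the values were 10.00, 9.18 and 9.57 with HL60 and 9.56, 10.00 and 10.03 with ML1, and the ch+ libraries 9.52, 10.47 and 10.05 and 10.19, 9.50 and 10.16. Late libraries had 8.48, 7.10 and 8.18 with HL60 and 8.41, 7.61 and 7.56 with ML1. The early libraries were all above ctrl and the late libraries all below it. Of all genes, 4.16% were likewise above ctrl in ch+, 3.27% above it in ch- and 9.93% below it in late. *Mki67* rose by 0.99 in ch+ against ctrl (standard error 0.25, adjusted p = 0.0152, limma). In ch- its value was 0.74 and was not called (adjusted p = 0.166, limma), and ch+ and ch- differed by 0.26 (adjusted p = 0.586, limma). In late it fell by 1.098 against ctrl (standard error 0.25, adjusted p = 0.00202, limma), fell by 2.09 against ch+ (standard error 0.21, adjusted p = 3.94e-09, limma) and fell by 1.83 against ch- (adjusted p = 4.7e-08, limma). None of these pooled calls was lost without a single library or without the ML1 late libraries. Rescaling left the differences from ch+ (−1.48) and ch- (−1.07) called, and the value against ctrl became −0.41, not called (adjusted p = 0.187, limma). Without the filter on low values the call in ch+ against ctrl was lost (adjusted p = 0.122, limma).

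By line, *Mki67* rose by 1.03 in HL60 ch+ (adjusted p = 0.0466, limma) and 0.96 in ML1 ch+ (adjusted p = 0.0560, limma). With 3 libraries a group, both calls depended on single libraries. The HL60 call was lost without ctrl replicate 374 (1.03) or 375 (1.01) or HL60 ch+ replicate 524 (0.80) or 525 (1.01). The ML1 call was lost without ctrl replicate 373 (0.97), 374 (0.97) or 375 (0.95) or ML1 ch+ replicate 538 (0.84) or 541 (0.86). In late against ctrl, *Mki67* fell by 1.07 with HL60 (adjusted p = 0.0149, limma), lost without HL60 late replicate 398 (−0.66), and fell by 1.13 with ML1 (adjusted p = 0.00586, limma). After rescaling neither was called (−0.50 and −0.31), and without the filter on low values the HL60 late call and both ch+ calls were lost. Red cell markers were higher in ch+ than in ctrl for 9 of 9 genes and myeloid markers for 11 of 12, with medians of 3.60 and 2.82, and in ch- for 8 of 9 and 11 of 12, and their part in the early *Mki67* values was not tested.

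*Top2a* (ENSMUSG00000020914, chr11:98992943-99024189), the topoisomerase that untangles replicated chromosomes, was lower in late than in ctrl and in both early groups. It had 7.87, 6.56 and 8.68 in ctrl, 7.07, 5.28 and 6.76 in HL60 late and 5.92, 5.68 and 4.60 in ML1 late. In ch- libraries the values were 8.24, 7.17 and 7.40 with HL60 and 7.31, 8.32 and 6.92 with ML1, and the ch+ libraries 8.14, 7.70 and 7.73 and 7.26, 7.40 and 7.30. All late libraries were below all ch+ libraries, as for 5.14% of all genes. All ML1 late libraries were below ctrl, and HL60 late overlapped the widely spread ctrl libraries. *Top2a* fell by 1.82 against ctrl (standard error 0.40, adjusted p = 0.00130, limma), fell by 1.71 against ch+ (adjusted p = 0.000258, limma) and fell by 1.68 against ch- (adjusted p = 0.000298, limma). These 3 pooled calls held without any single library, without the ML1 late libraries (−1.34 against ctrl) and after rescaling (−1.13 against ctrl). By line it fell by 2.31 in ML1 late (adjusted p = 0.000447, limma) and fell by 1.34 in HL60 late (adjusted p = 0.0665, limma). The HL60 call was lost without ctrl replicate 373 (−1.26) or 375 (−0.85) or HL60 late replicate 398 (−0.79), after rescaling (−0.77), with the compared groups alone (adjusted p = 0.122, limma) and without the filter on low values (adjusted p = 0.263, limma). In the early groups *Top2a* was −0.12 in ch+ and −0.14 in ch- against ctrl. *Smc2*, a condensin subunit, fell by 0.65 in late against ch+ (standard error 0.24, adjusted p = 0.0576, limma), lost without HL60 ch+ replicate 523 (−0.59), ML1 ch+ replicate 539 (−0.59), HL60 late replicate 398 (−0.55) or ML1 late replicate 582 (−0.63) or 583 (−0.55), without all ML1 late libraries (−0.40) and after rescaling (−0.03), and was −0.13 against ctrl.

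**Figure D2:**
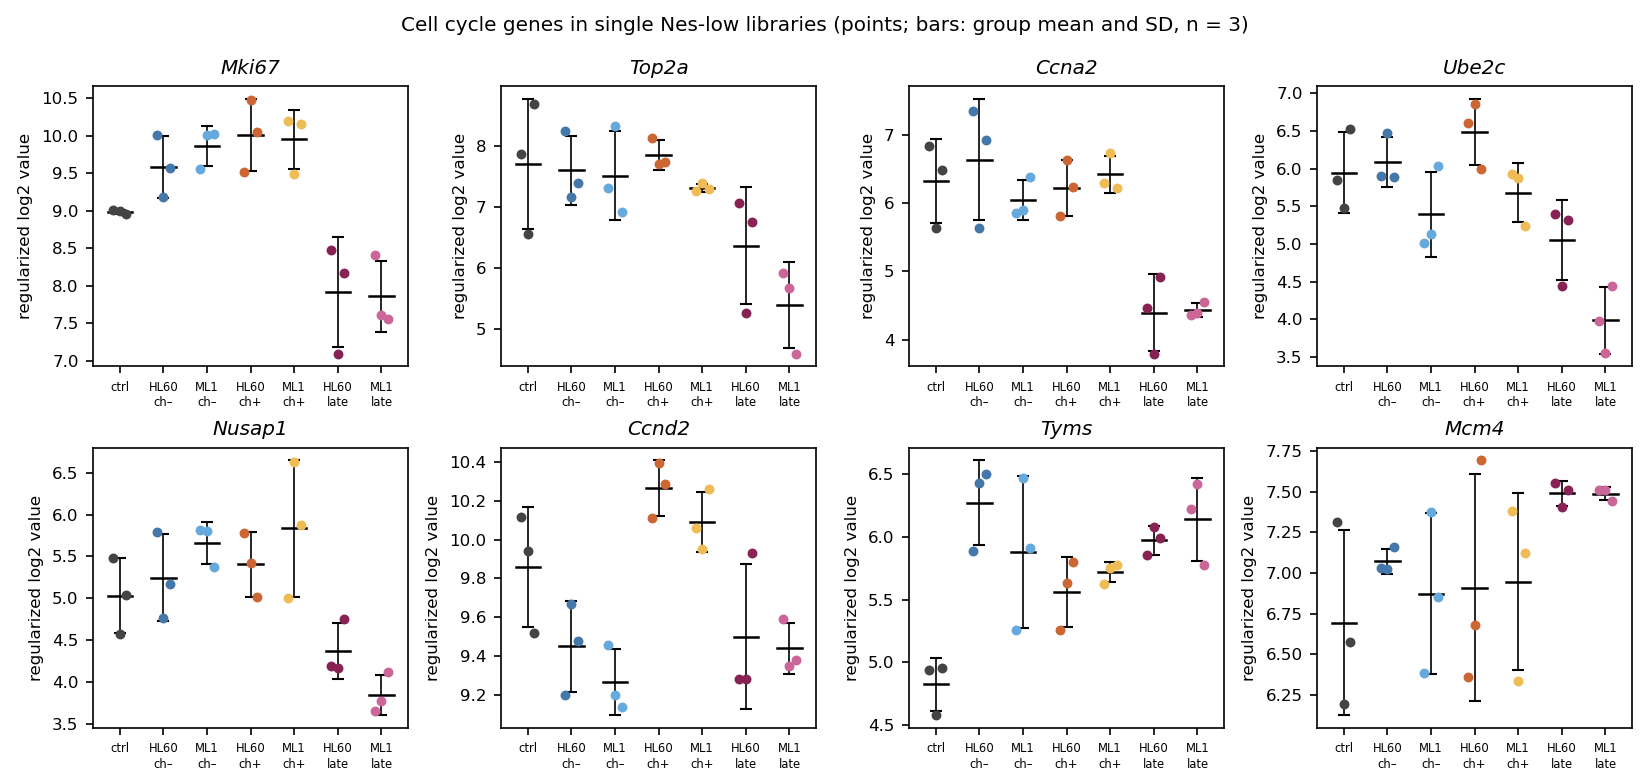
Regularized log2 values of 8 cell cycle genes in single Nes low libraries (points), by group and cell line, with the group mean and SD (n = 3 each). *Mki67* lies at 8.96 to 9.01 in ctrl, at 9.18 to 10.47 in the early groups and at 7.10 to 8.48 in late, while *Tyms* has its lowest values in ctrl (4.58 to 4.95), and rescaling to the library totals shifts the late log2 fold change of *Mki67* against ctrl from −1.098 to −0.41.

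The lines were also tested against each other. In late cells, limma called none of the 35 members between HL60 and ML1, where 4.09% of all genes were called, and 3 members had an unadjusted p under 0.05, beside 10.9% of all genes. In ch+ none was called (3 at an unadjusted p under 0.05 beside 7.61% of all genes, and 0.0154% of all genes called) and in ch- none (0 at an unadjusted p under 0.05 beside 6.82%, and 0.0539% called). Within lines, late against ctrl gave 4 members for HL60 (1 higher and 3 lower, where 6.46% of all genes were higher, 7.24% lower and 13.7% called) and 10 for ML1 (1 higher and 9 lower, where 9.89% were higher, 12.1% lower and 22.0% called). The HL60 count fell to 1 without HL60 late replicate 398, and the ML1 count to 5 without ML1 late replicate 582. The medians were −0.36 and −0.62, against 0.01 and 0.03 for all genes. Beyond the members given above, *Kif11*, *Nusap1* and *Prc1* fell in ML1 late, with −1.25, −1.19 and −1.09 (adjusted p = 0.0325, 0.0498 and 0.0618, limma). In HL60 late these 3 were not called, and the tests between the lines gave 0.87, 0.52 and 0.50 (adjusted p = 0.424, 0.810 and 0.810, limma). Each of these 3 calls was lost without ML1 late replicate 582 (−0.98, −1.15 and −1.09) and without 1 or 2 ctrl libraries, replicate 375 for *Kif11* (−1.12), 373 for *Nusap1* (−0.96), and 373 (−0.92) and 374 (−0.92) for *Prc1*. Those of *Nusap1* and *Prc1* were also lost without ML1 late replicate 581 (−1.09 and −1.16), and that of *Prc1* without 583 (−1.02). After rescaling none of the 3 was called (−0.43, −0.37 and −0.27). Rescaled to the library totals, the splits became 4 higher and 1 lower for HL60 and 8 higher and 3 lower for ML1, with medians of all genes of 0.58 and 0.84, where 39.7% of all genes were higher and 2.92% lower with HL60, and 63.0% and 4.70% with ML1.

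At the early stage the lines gave few calls apart. In HL60 ch+ against ctrl *Mki67* alone was higher, where 2.87% of all genes were higher, 2.46% lower and 5.33% called. In ML1 ch+ it was again *Mki67* alone, where 3.47% were higher, 3.22% lower and 6.69% called. *Tyms* alone was higher in HL60 ch-, where 0.894% were higher, 0.678% lower and 1.57% called. In ML1 ch- limma called none of the 35, with 3 at an unadjusted p under 0.05 beside 12.7% of all genes, where 1.42% were higher, 0.925% lower and 2.34% called. *Tyms* had 1.05 there (adjusted p = 0.171, limma), and HL60 and ML1 ch- cells differed in it by 0.39 (adjusted p = 0.876, limma). Between ch+ and ch-, *Ccnd2* alone was higher with each line, where 2.27% of all genes were higher, 1.66% lower and 3.92% called with HL60, and 2.34% higher, 1.91% lower and 4.25% called with ML1.

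Against early ch+ cells of the same line, 6 members were lower in late with HL60 (10.2% of all genes called, 5.95% lower and 4.25% higher) and 6 with ML1 (16.9% called, 9.83% lower and 7.07% higher), and none was higher. *Mki67* (−2.09 and −2.09), *Ccna2* (−1.83 and −1.98), *Top2a* (−1.49 and −1.92), *Ube2c* (−1.43 and −1.69) and *Ccnd2* (−0.77 and −0.65) were called with both lines. *Kif23* fell by 1.24 with HL60 and *Nusap1* fell by 1.99 with ML1, where the other line had −0.51 and −1.04 without a call. Whether the 2 lines differ in this contrast was not tested. In HL60, the calls of *Top2a* and *Ube2c* were lost without HL60 late replicate 398 (−0.94 and −1.13), that of *Top2a* without HL60 ch+ replicate 523 (−1.35), that of *Ube2c* without HL60 ch+ replicate 524 (−1.25), and that of *Kif23* without HL60 late replicate 397 (−0.996) or 399 (−1.21) or HL60 ch+ replicate 523 (−1.15) or 524 (−1.09), and also without ML1 late replicates 581, 582 or 583 or ML1 ch- replicate 546 (−1.24 each). The HL60 count was then 4 at the lowest, without HL60 ch+ replicate 524 or HL60 late replicate 398. After rescaling, 4 members were higher and 3 lower with HL60, where the calls of *Ccnd2*, *Kif23* and *Top2a* were lost (−0.30, −0.77 and −1.02), and 5 higher and 5 lower with ML1. In these, 27.4% of all genes were higher and 2.78% lower with HL60, and 59.8% and 4.24% with ML1.

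Genes outside the 42 that act in the same steps were listed as 5 groups. Of 28 other mitotic genes tested, 1 was higher and 5 lower in late against ctrl, with a median of −0.30. That is 21.4%, near the 22.8% of all genes called, of which 10.7% were higher and 12.0% lower. Against ch+ 1 was higher and 8 lower (32.1%, where 9.51% of all genes were higher, 11.6% lower and 21.1% called), with a median of −0.54. *Anln*, an actin-binding protein of the cleavage furrow, fell by 1.224 against ctrl (standard error 0.38, adjusted p = 0.0235, limma) and fell by 1.73 against ch+. *Aspm*, a spindle pole protein, fell by 1.29 (standard error 0.41, adjusted p = 0.0251, limma) and fell by 1.75, and *Hmmr*, which binds spindle microtubules, fell by 1.25 (standard error 0.42, adjusted p = 0.0344, limma) and fell by 0.95. *Incenp*, the scaffold of the passenger complex, fell by 1.05 (standard error 0.40, adjusted p = 0.0671, limma) and fell by 0.92. After rescaling, none of these 4 was called against ctrl (−0.53, −0.60, −0.56 and −0.36), and against ch+ *Anln* (−1.11) and *Aspm* (−1.14) were. Without the ML1 late libraries *Aspm* kept its call against ctrl (−1.32), and *Anln* (−1.099), *Hmmr* (−0.71) and *Incenp* (−1.06) lost theirs. Against ch+, *Anln* (−1.61) and *Aspm* (−1.79) kept their calls, and *Hmmr* (−0.42) and *Incenp* (−0.93) did not. *Zwint*, a kinetochore gene named here after its values were seen, was the one that rose, by 0.61 against ctrl (standard error 0.24, adjusted p = 0.0822, limma), 0.85 against ch+ and 1.18 against ch-. Its log2 values were 7.15 to 7.24 in ctrl, 7.33 to 7.79 in HL60 late and 7.79 to 8.19 in ML1 late, with no overlap between ctrl and late. Late was fully above ctrl in this way for 9.15% of all genes. Without the ML1 late libraries its calls against ctrl (0.42) and ch+ (0.67) were lost and that against ch- held (0.996). In the early groups against ctrl, limma called none of the 28, with 1 at an unadjusted p under 0.05 in ch+ and 3 in ch-, beside 18.0% and 12.9% of all genes. *Cdc25b*, a phosphatase that activates Cdk1, rose by 0.86 in ch+ against ch- (standard error 0.28, adjusted p = 0.0694, limma), 1 of 28 beside 7.72% of all genes called, and after rescaling it was 1.01 and still called. In late against ch+ it fell by 1.04 (adjusted p = 0.00758, limma), which held without the ML1 late libraries (−0.99) and was −0.43 and not called after rescaling. After subtraction of the median of all genes, which absorbs the shift by rescaling, the late medians were −0.32 against ctrl and −0.56 against ch+.

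The median of 20 other replication genes was 0.19 in late, 0.29 in ch+ and 0.22 in ch- against ctrl. Between ch+ and ch-, *Pold1*, the catalytic subunit of DNA polymerase delta, fell by 0.97 (adjusted p = 0.0737, limma), 1 of 20 (5.00%, where 3.62% of all genes were lower and 7.72% called), and after rescaling it was −0.81 and not called.

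Among 18 genes of pocket proteins, E2F factors and the DREAM and MMB complexes, which hold cell cycle genes off or switch them on, 2 were lower in late against ctrl and none higher (11.1%, where 12.0% of all genes were lower, 10.7% higher and 22.8% called). *Rb1*, the retinoblastoma protein gene, fell by 0.50 (standard error 0.21, adjusted p = 0.0955, limma), and *E2f3*, an activating E2F, fell by 0.95 (standard error 0.36, adjusted p = 0.0670, limma). Both calls were lost without the ML1 late libraries (−0.43 and −0.85) and after rescaling, where *Rb1* turned to 0.19 and *E2f3* was −0.26. *E2f2*, another activating E2F, rose by 1.24 in ch+ and by 1.38 in ch- against ctrl (adjusted p = 0.0503 and 0.0561, limma) and fell by 1.25 in late against ch+ (adjusted p = 0.00372, limma), the last without a call when the ML1 late libraries were left out (−1.05). Its means of 3.05 in ctrl and 3.04 in late were below the 3.32 level that the mean of all libraries passed (3.79), so these differences start from low values. Its values were 3.09, 2.94 and 3.11 in ctrl, 4.07, 4.23 and 3.92 in HL60 ch-, 4.47, 5.02 and 4.83 in ML1 ch-, 5.09, 3.18 and 4.55 in HL60 ch+ and 4.84, 3.18 and 4.85 in ML1 ch+. All ch- libraries and 4 of the 6 ch+ libraries were clearly above ctrl, and HL60 ch+ replicate 524 and ML1 ch+ replicate 539, each at 3.18, were close to it. Of all genes, 3.27% had every ch- library above ctrl. *Lin9*, a subunit shared by DREAM and MMB, fell by 0.998 in ch+ and fell by 1.60 in ch- (adjusted p = 0.0958 and 0.00947, limma), the first not called after rescaling (−0.92). *E2f3* fell by 1.37 in ch- (adjusted p = 0.0439, limma). In late against ch+, *E2f8*, a repressive E2F, fell by 1.07 and *Rb1* fell by 0.60 (adjusted p = 0.0799 and 0.0114, limma), so that 3 of 18 were lower and none higher (16.7%, where 11.6% of all genes were lower, 9.51% higher and 21.1% called). Without the ML1 late libraries *E2f8* (−0.86) and *Rb1* (−0.52) were not called, and neither was after rescaling (−0.46 and 0.02). The medians were −0.04 in late, 0.05 in ch+ and 0.19 in ch- against ctrl.

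Of 6 inhibitors of cyclin-dependent kinases tested, *Cdkn1c*, which encodes p57, rose by 0.87 in late against ctrl (standard error 0.31, adjusted p = 0.0501, limma) and by 0.76 against ch+, and fell by 0.86 in ch+ against ch- (adjusted p = 0.0354, limma). It had 7.32, 6.46 and 5.90 in ctrl, 7.37, 7.77 and 7.26 in HL60 late and 7.40, 7.30 and 7.46 in ML1 late. In ch+ it had 6.22, 5.95 and 7.18 with HL60 and 6.87, 7.51 and 6.23 with ML1, and in ch- 7.70, 7.37 and 7.44 and 7.33, 7.74 and 7.55. The ch- and late values were alike and tight, whereas ctrl and ch+ values spread downward from them. Without the ML1 late libraries the late calls of *Cdkn1c* were lost, with values of 0.90 against ctrl and 0.80 against ch+, and after rescaling the difference between ch+ and ch- was −0.71 and not called. *Cdkn1a*, which encodes p21, fell by 0.50 in late against ch- (adjusted p = 0.00910, limma) and was −0.31 against ctrl. The value against ch- was −0.41 without the ML1 late libraries, not called, and turned to 0.27 after rescaling, where it was called higher.

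Among 6 other G1 regulators, *Myc*, a growth-promoting transcription factor, rose by 0.73 in late against ctrl (standard error 0.17, adjusted p = 0.00165, limma). Its values were 9.80, 9.70 and 10.51 in ctrl, 10.37, 10.59 and 10.28 in HL60 late and 10.88, 10.97 and 11.32 in ML1 late. Every ML1 late library was above ctrl, and HL60 late overlapped it. The rise was 1.05 with ML1 (adjusted p = 0.000116, limma), and the value of 0.41 with HL60 was not called (adjusted p = 0.206, limma), and the pooled call was lost without the ML1 late libraries (0.41). The lines differed by −0.64 in late (adjusted p = 0.0627, limma). *Cdk6*, a partner of cyclin D2, fell by 0.79 in ch- against ctrl (adjusted p = 0.0559, limma) and rose by 0.70 in ch+ against ch- (adjusted p = 0.0117, limma). *Cdc25a*, a phosphatase that activates cyclin-dependent kinases, fell by 0.79 in ch+ against ch- (adjusted p = 0.0751, limma), which was −0.64 and not called after rescaling.

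**Figure D3:**
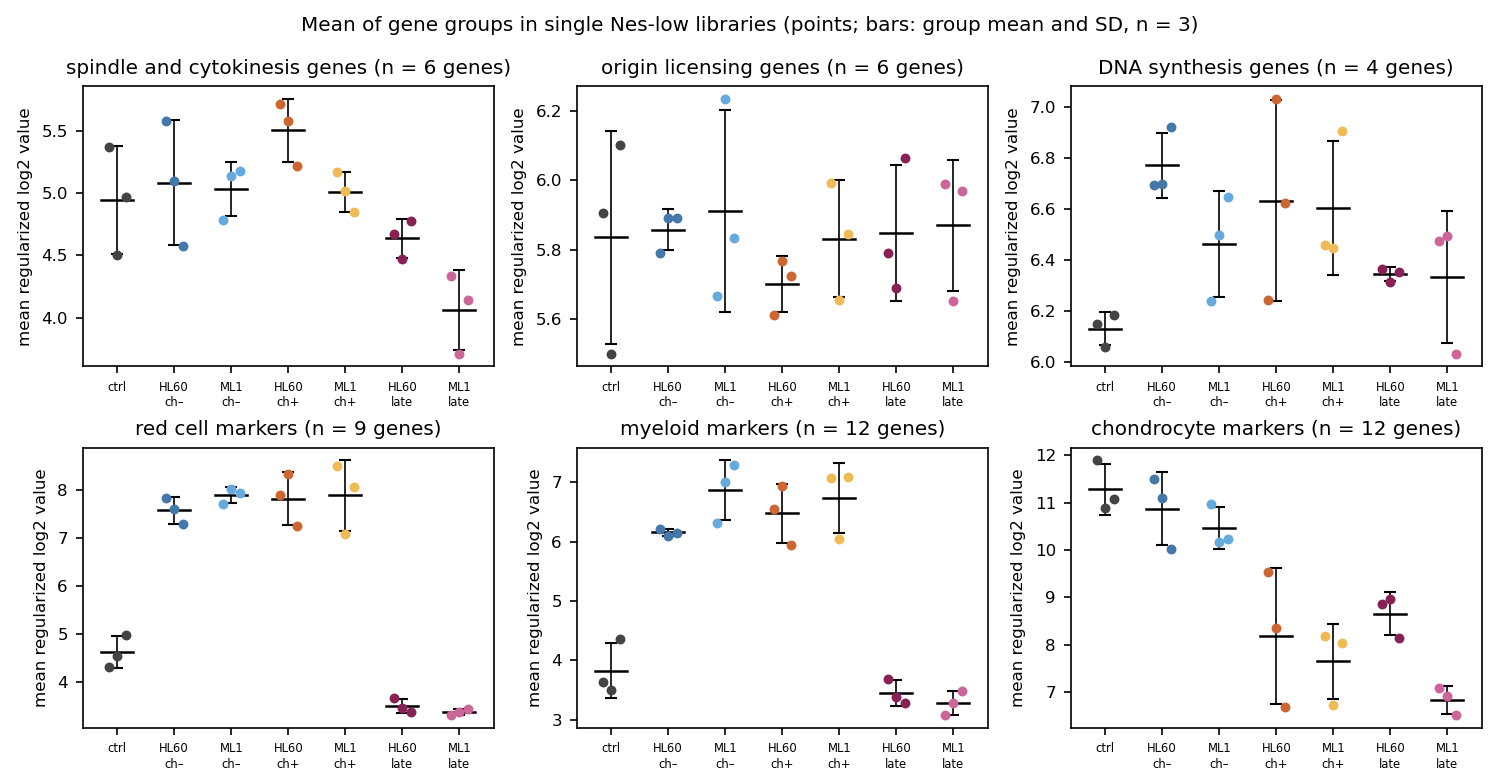
Mean regularized log2 value of 3 groups of cell cycle genes and of 3 marker lists in single Nes low libraries (points), by group and cell line, with the group mean and SD (n = 3 each). Red cell and myeloid markers are highest in the early groups and lowest in late. Means of red cell markers are 7.08 to 8.51 in ch+, 7.29 to 8.03 in ch-, 4.31 to 4.97 in ctrl and 3.30 to 3.66 in late. Those of the spindle genes are 4.85 to 5.71 in ch+, 4.57 to 5.58 in ch-, 4.51 to 5.37 in ctrl and 3.71 to 4.77 in late. Rescaling to the library totals brings the median late log2 fold change of the spindle genes against ctrl from −0.68 to 0.01.

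The members' promoters were read from RefSeq windows of the build GRCm38.p6, from 250 bases before to 50 bases after each gene's RefSeq start, to see what sequence the members share. Of the 42 members 34 had a window, 2 of them with several. The other 8 were *Ccna2*, *Ccne2*, *Ccnd1*, *Ccnd2*, *Aurkb*, *Kif20a*, *Tpx2* and *Mcm4*. Motifs were searched as exact letters on both strands. The CHR element (TTTGAA or TTTAAA), known from genes of G2 and mitosis, was present in 24 of 34 members (70.6%) and in 30.6% of all 27025 genes with a window. The CCAAT box (CCAAT), bound by NF-Y, was present in 28 of 34 (82.4%) and in 41.1% of all. E2F-type words, 4 words of 8 bases each, were present in 6 of 34 (17.6%) and in 2.60% of all. Among the 11 members with a window that were lower in late against ch+, 10 held a CHR (90.9%), 9 a CCAAT box (81.8%) and none an E2F-type word. Among the 16 tested members with a window that were not called there, 9 held a CHR (56.2%), 15 a CCAAT box (93.8%) and 4 an E2F-type word (25.0%). These sets differ in role. Of the uncalled S phase members, *Mcm2* and *Mcm5* held a CHR, and *Mcm3*, *Mcm6*, *Mcm7*, *Pcna*, *Rrm1* and *Tyms* did not. The E2F-type words were in *Mcm3*, *Mcm5*, *Mcm6* and *Mcm7*. All uncalled mitotic members with a window except *Bub1* held a CHR. A link between motif and call within a role was not tested. A match is a run of letters and not a bound site.

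Up to 250 bases before the RefSeq start are printed for *Mki67* (chr7:135716380-135716629, minus strand), *Top2a* (chr11:99024190-99024439, minus strand), *Ube2c* (chr2:164769679-164769897, plus strand) and *Nusap1* (chr2:119618048-119618297, plus strand), the 4 members with a window that fell in late against ctrl, ch+ and ch-, and for *Tyms* (chr5:30073626-30073875, minus strand) because it rose against ctrl. They run 5′ to 3′ along the gene's strand, with matches to CHR and CCAAT words on either strand in capitals. In what is printed, *Mki67* has 2 CHR and 3 CCAAT matches, *Top2a* 2 and 6, *Ube2c* 0 and 6, *Nusap1* 0 and 0, and *Tyms* 0 and 0.
*Mki67*: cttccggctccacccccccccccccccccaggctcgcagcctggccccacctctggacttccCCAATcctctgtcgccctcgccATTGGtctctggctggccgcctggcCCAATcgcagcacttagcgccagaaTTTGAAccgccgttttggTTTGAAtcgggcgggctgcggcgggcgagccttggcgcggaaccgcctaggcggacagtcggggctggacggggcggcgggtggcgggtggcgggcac
*Top2a*: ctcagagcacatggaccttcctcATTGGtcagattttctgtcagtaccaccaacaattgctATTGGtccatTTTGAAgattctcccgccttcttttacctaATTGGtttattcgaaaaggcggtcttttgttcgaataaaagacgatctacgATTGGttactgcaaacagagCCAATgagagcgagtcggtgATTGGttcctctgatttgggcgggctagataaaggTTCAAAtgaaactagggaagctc
*Ube2c*: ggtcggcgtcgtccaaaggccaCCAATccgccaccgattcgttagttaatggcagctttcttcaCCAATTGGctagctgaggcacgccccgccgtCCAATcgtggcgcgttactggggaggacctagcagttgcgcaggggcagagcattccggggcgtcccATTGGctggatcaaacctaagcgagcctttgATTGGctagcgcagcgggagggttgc
*Nusap1*: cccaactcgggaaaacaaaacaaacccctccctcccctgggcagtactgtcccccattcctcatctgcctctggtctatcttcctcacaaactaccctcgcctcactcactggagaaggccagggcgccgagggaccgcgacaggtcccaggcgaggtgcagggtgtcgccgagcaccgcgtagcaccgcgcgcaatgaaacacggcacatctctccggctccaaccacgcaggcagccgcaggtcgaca
*Tyms*: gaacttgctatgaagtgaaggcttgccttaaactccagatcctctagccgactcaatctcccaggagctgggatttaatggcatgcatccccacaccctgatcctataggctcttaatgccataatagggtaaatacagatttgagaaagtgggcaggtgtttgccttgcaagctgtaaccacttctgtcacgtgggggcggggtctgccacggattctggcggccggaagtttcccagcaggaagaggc
The CHR matches of *Mki67* start at −116 and −98 relative to the RefSeq start and those of *Top2a* at −179 and −23. That of *Ube2c* is at −29, within the 31 bases before its RefSeq start that belong to the Ensembl gene span given earlier and are not printed.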

How the data were processed

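The series was deposited as a table of log2 values for 26852 Ensembl genes in 21 libraries. The authors had aligned reads to the mouse genome build mm10 with STAR 2.5.1b, quantified genes with RSEM 1.2.29 and made regularized values with DESeq2 (1.10.1 in the labels, 1.22.2 in the paper). The paper's methods name log10, but the values run from −2.33 to 22.44 and were read as log2. They were used as deposited. The paper gives a typical sequencing yield, and the depth of each library is unknown.

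Groups were fitted with limma 3.58.1 in R 4.3.3 as 7 group means, with an intensity trend in the variance and Benjamini-Hochberg adjustment within each of 19 comparisons. Genes with a mean of at least 3.32 (10 normalized counts) over all libraries were tested, and an adjusted p under 0.1 was called. The design named limma for values on a log2 scale. Figures were drawn with Python 3.11.15 and matplotlib 3.10.9. Alternatives were an adjusted p under 0.05, no filter on low values, quantile normalization, rescaling to the mean library total, the compared groups alone, 4 groups with lines pooled, leaving out the ML1 late libraries and leaving out each library. The comparisons of late with early ch- and of late with early ch+ within each line were chosen after seeing the data.

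The labels do not say that the libraries came from separate animals, so p-values measure only the spread between these samples, which may be technical. The members, roles and lists were chosen with earlier results of these data known. All 42 members may be named. Values in every library are printed for members called in at least 2 of 5 pooled comparisons (late, ch+ and ch- against ctrl, ch+ against ch-, late against ch+), and otherwise for the member with the smallest adjusted p of each role. Of each other list, up to 4 called genes with the largest absolute log2 fold change are named for each of these 5 comparisons. The most abundant gene of each marker list, *Nes* and *Ptprc* are also named. *Zwint* and *Cdkn1a*, the second called in late against ch-, are named beyond this rule. One gene of these other lists is not reported here, and the counts and medians of its list leave it out.

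The method was tested on simulated data of 12976 genes for late against ctrl. There it found 46 of 50 changes of 2.0, 37 of 100 of 1.0 and 3 of 50 of 0.5 on the log2 scale, with 6 false calls. The changed genes were a far smaller share of all genes than the 22.8% called in the real comparison, and the simulated noise was independent between genes. The shares found and the false calls therefore need not hold for these data. Comparisons of 3 against 3 libraries were not simulated.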

Additional observations from a re-analysis of the deposited data

Results flagged for a closer look

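*Col1a1*, the most abundant osteoblast marker, differed between the lines in late, with a log2 fold change of 2.501 for HL60 against ML1 and means of 18.65 and 16.15, beside 20.32 in ctrl. *Col2a1*, the most abundant chondrocyte marker, differed by 1.99 in the same comparison, with means of 13.34 and 11.36, beside 16.29 in ctrl. *Myc* differed by −0.64 (adjusted p = 0.0627, limma), with means of 10.41 in HL60 late and 11.06 in ML1 late, beside 10.00 in ctrl.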

How the results depend on the processing

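No paired analysis was run. By the paper, ch- cells came from the same marrow as ch+ cells. The title numbers of ch+ and ch- libraries run in parallel within a line, but the labels do not say which libraries share a mouse. The tests of ch+ against ch- treat them as separate samples. Of 104 counts of called members under other settings, 88 stayed within 1.5 times of the first count, and 16 moved. Late against ctrl gave 7 members, and 12 with the compared groups alone (2 higher and 10 lower). It gave 12 after rescaling to the library totals (9 higher and 3 lower) and 4 without the ML1 late libraries. Late against ch+ gave 14, and 9 at an adjusted p under 0.05 and 7 without the ML1 late libraries. Late against ch- gave 10, and 17 after rescaling and 5 without the ML1 late libraries. Early ch+ against ctrl gave 1, and 0 without the filter on low values. HL60 ch- against ctrl gave 1, and 0 with the compared groups alone. HL60 ch+ against ctrl gave 1, and 0 without the filter. HL60 late against ctrl gave 4, and 2 without the filter. ML1 ch- against ctrl gave 0, and 1 with the compared groups alone and 1 after rescaling. ML1 ch+ against ctrl gave 1, and 0 at an adjusted p under 0.05 and 0 without the filter. ML1 late against ML1 ch+ gave 6, and 10 after rescaling. Some totals stayed near while their directions turned after rescaling: late against ch+ went from 0 higher and 14 lower to 8 and 5, ML1 late against ctrl from 1 and 9 to 8 and 3, HL60 late against ctrl from 1 and 3 to 4 and 1, and HL60 late against HL60 ch+ from 0 and 6 to 4 and 3. The cause was not tested.

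Leaving out 1 library at a time gave 0 to 2 members for ch- against ctrl, 1 to 2 members for ch+ against ch-, 1 to 2 members for ch+ against ctrl, 0 to 1 members for HL60 ch- against ctrl, 1 to 1 members for HL60 ch+ against ch-, 0 to 1 members for HL60 ch+ against ctrl, 4 to 7 members for HL60 late against ch+, 1 to 4 members for HL60 late against ctrl, 0 to 0 members for HL60 against ML1 in ch-, 0 to 0 members for HL60 against ML1 in ch+, 0 to 0 members for HL60 against ML1 in late, 8 to 11 members for late against ch-, 9 to 15 members for late against ch+, 5 to 9 members for late against ctrl, 0 to 1 members for ML1 ch- against ctrl, 1 to 1 members for ML1 ch+ against ch-, 0 to 1 members for ML1 ch+ against ctrl, 6 to 8 members for ML1 late against ch+ and 5 to 11 members for ML1 late against ctrl.

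Of 390 calls of single members under other settings, 308 held, 81 were lost and 1 reversed: *Ccnd2* in ML1 late against ML1 ch+ was −0.65, and 0.11 after rescaling. The cause was not tested. Of 1365 calls with 1 library left out, 1238 held and 127 were lost. The depth of each library is unknown, so changes of weakly expressed members could be missed.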
